A study of Mus musculus with 3 samples.

Results

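The transcripts described here are those of mouse genes of DNA replication, DNA repair and the cohesin family, taken by gene name. A gene was included where its name in any of the lists starts with Mcm, Rad, Rpa, Smc or Top followed by a digit, or with Xrcc, Msh, Mlh, Brca, Fanc, Pold, Pole, Rfc, Ercc or Stag, or is Atm, Atr, Polq or Rec8. This gave 410 of the 40298 distinct 5-methylcytosine (m5C) sites in mRNA and 84 of the 8353 genes with a site. The lists come from bisulfite sequencing of RNA, in which C is converted and m5C is not, so the m5C level of a site is the share of its reads that still show C. There was 1 library for each of 3 stages of wild-type C57BL/6J mice, from females 7 to 8 weeks old by the labels. Fully grown oocytes with a germinal vesicle (GV), arrested before the meiotic divisions, were taken 48 h after 10 IU of PMSG. Metaphase II (MII) oocytes, matured and awaiting fertilization, were taken 12 h after 5 IU of hCG that followed 10 IU of PMSG. For the 1-cell embryos, mated females had received 5 IU of PMSG and 5 IU of hCG, and about 200 embryos were taken 24 h after the latter. The methods of the study state another hCG dose for MII oocytes, a wider age range for the oocyte donors, and RNA depleted of ribosomal RNA where the labels state poly(A) RNA. The labels also describe the conversion step of the embryos in other words than that of the oocytes. The number of oocytes or females behind a library is not given in the sources used here. With 1 library per stage no value below has a replicate check, and stage, hormone dose and library preparation cannot be told apart. The 1-cell embryo list analysed here is the deposited one, and its coverage and levels differ from those in the supplement of the study at most sites that could be compared, so every embryo value describes that list alone.

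DNA replication starts where the MCM helicase has been loaded onto origins, and the DNA polymerases then copy both strands with the help of a sliding clamp, its loader and single-strand binding proteins. Damage is met by dedicated pathways for mismatches, bulky lesions, broken strands and crosslinks, while cohesin holds sister chromatids together. Fully grown oocytes do not replicate DNA, but they store mRNAs that serve the meiotic divisions and the first replication of the embryo. In mRNA, m5C is placed mainly by NSUN2, which favours sites with G bases downstream (Type I), and by NSUN6, whose sites read CUCNA from the methylated base on (Type II).

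The following windows show the sites on which most of the results below turn, each read 5′ to 3′ from the spliced transcript, with the methylated C and the 4 bases after it in capitals. The first set holds Type I sites whose level differed most between stages, or which had the highest levels or the most reads.
Smc4, chr3:69006193: gccggcgaagCGGAGagcgcugcac
Mcm5, chr8:75121215: ugacaagaugCGGGAagaugaccgu
Mcm5, chr8:75115882: uuccugggaaCAGGGucaccaucau
Msh6, chr17:87975358: aggaucucaaCGGAGggcugcggag
Msh6, chr17:87984716: cgcuccaaagCGGAAgagagccaug
Top3a, chr11:60756436: gcugccuucaCAAGGuuccagaccc
Top3a, chr11:60742772: gggccccaacCAGGGccggcauuuc
Brca2, chr5:150541692: aaacuuguguCAGAGagucuucucu
Brca2, chr5:150554362: gguacgcuguCAGGGcccagcuaga
Rad50, chr11:53707226: cgcgcccuccCGGGAaaccgaagcc
Fanca, chr8:123305256: aucugcacugCAGGGuuuuggcgac
Xrcc1, chr7:24559841: agcuggugaaCAGGAcuaugagguc
Xrcc1, chr7:24570285: gcggcgaagaCGAAGcucccaagcu
Poldip3, chr15:83126926: uugauuggauCAGAGccauuggcug

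The second set holds Type II sites, in which the same 5 capitals spell CUCNA.
Pole, chr5:110308986: cugagaaccgCUCCAugucucggaa
Msh4, chr3:153896923: gaucacuaaaCUCCAaguuuuauca
Mcm6, chr1:128344390: guggcaaagcCUCCAgcgcugccgg
Rpa2, chr4:132778215: agcgacuguuCUCCAaggcuucgug
Xrcc5, chr1:72394860: cacuccagguCUCUAcagagugacc

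Positions are on GRCm38 and count from 1. A site is in a list only with at least 20 reads, a level of at least 10% and at least 5 unconverted reads, so absence from a list may mean no methylation, a value under these limits or no coverage. At 20 reads the last limit asks for a level of 25%, and it ceases to matter at 50 reads. Of the member sites, 40 in the GV oocyte, 49 at MII and 106 in the 1-cell embryo had fewer than 50 reads. Genes that mark oocytes, from a list of 20, had sites in all stages (11, 14 and 16 genes in the order of development), while 0, 2 and 1 of 15 follicle cell genes and 1, 1 and 0 of 6 sperm genes had any. The reads at follicle cell sites summed to 0, 145 and 48, against 80330, 81250 and 32793 at oocyte gene sites, and their part in the results was not tested.

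Sites in these transcripts were listed at every stage. Without a further limit on coverage, more were listed in the MII oocyte and the 1-cell embryo than in the GV oocyte. With sites under 50 reads left out, 143, 181 and 121 remained in the order of development, so the embryo then had the fewest. The GV oocyte list held 183 member sites (95% Poisson interval 157 to 212) in 64 genes. After maturation, 230 sites (201 to 262) were listed, and 65 genes had them. In the 1-cell embryo there were 227 sites (198 to 259) in 68 genes. The intervals of these counts overlap. Member sites made up 1.15% of the whole list at the GV stage (95% exact binomial interval 0.990 to 1.33), 1.11% at MII (0.973 to 1.26) and 0.908% in the 1-cell embryo (0.794 to 1.03), and these intervals overlap. Intervals here and below cover counting error only.

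**Figure D1:**
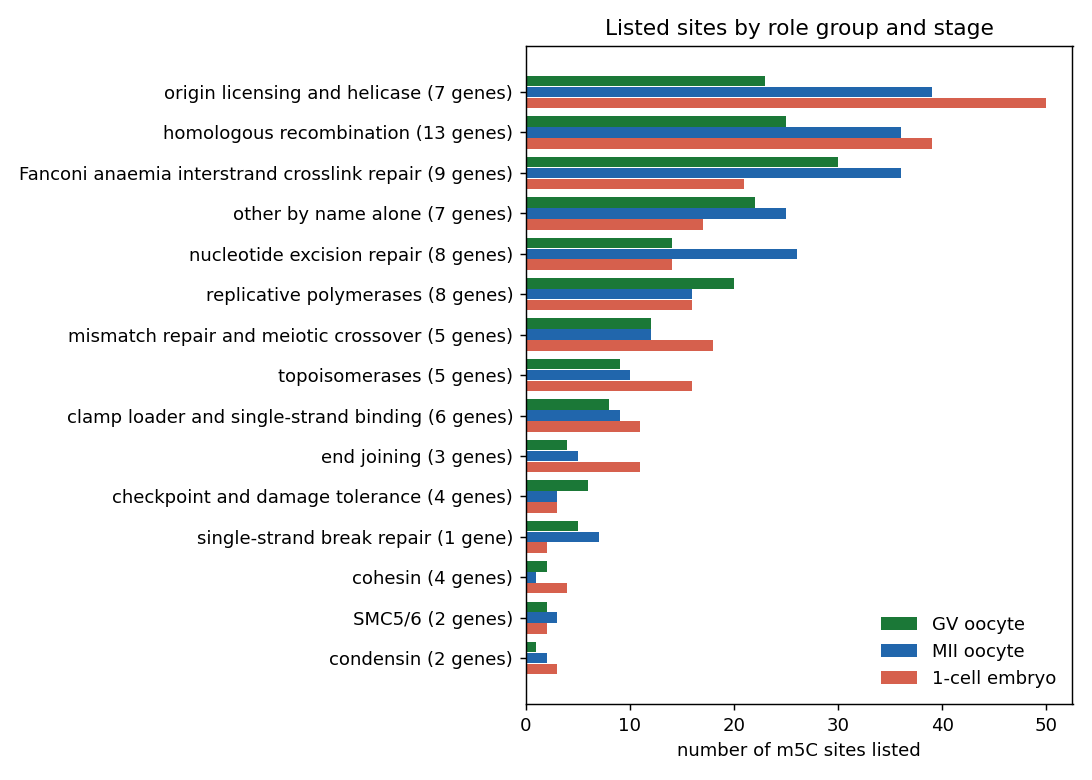
Number of listed m5C sites (horizontal axis) in each role group of genes (vertical axis), with 1 bar per stage. Origin licensing and helicase genes had 23, 39 and 50 sites in the order of development, while Fanconi anaemia genes had 30, 36 and 21 sites.

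The number of listed sites did not follow a single course over the stages in all groups of genes. The whole lists held 15910, 20694 and 24996 sites. Origin licensing and helicase genes (Mcm2 to Mcm7 and Mcm10) had 23, 39 and 50 sites in the order of development, and homologous recombination genes had 25, 36 and 39. End joining genes had 4, 5 and 11 sites, and topoisomerases 9, 10 and 16. Fanconi anaemia genes, which act on DNA interstrand crosslinks, had 30, 36 and 21 sites, and nucleotide excision repair genes 14, 26 and 14. Replicative polymerases had 20, 16 and 16 sites. The genes of cohesin had few, with 2, 1 and 4 sites. Many of these counts are small, and the groups also differed in coverage. Median reads were 296, 289 and 76 for origin licensing genes and 68.5, 55 and 38 for Fanconi anaemia genes. The part of coverage in these counts was not tested.

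Of the 84 genes, 47 had a site in all 3 lists, 16 in the oocytes alone and 15 in the 1-cell embryo alone. These were 56.0%, 19.05% and 17.9% of the members, near the 53.9%, 23.3% and 13.6% of all genes with a site. The 16 genes seen in the oocytes alone carried 50 sites, among them Fancm with 9, Rad54l2 with 8, and Ercc6 and Mcm8 with 5 each. The 15 genes seen in the embryo alone carried 23 sites and included Rfc2 with 4 sites, Rpa1, Top2a, Pole2, Pole4, Xrcc4, Rad21 and Stag1. In GENCODE release M21, 103 protein-coding genes bear such names, and 20 of them had no site in any list, including Polq, Rec8, Smc3, Smc1b, Stag2, Rad51b, Rad51c, Msh5 and Mlh3. Whether these transcripts lacked m5C or lacked reads was not tested. The gene of the list called Xrcc6bp1 has another symbol in that release.

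The genes with the most sites differed between stages. In the GV oocyte, Pole, the catalytic subunit of the leading strand polymerase, had 13 sites, followed by Brca2, Fanca and Rad54l2 with 7 each. The MII oocyte list was led by Fance with 11 sites, Mcm10 with 10, and Brca2 and Ercc2 with 9 each. The 1-cell embryo list was led by Mcm5 with 13 sites and Xrcc3 with 10, while Fanca, Mcm6, Mcm7, Top3a and Xrcc5 had 8 each. Mcm7, a subunit of the replicative helicase, had 1 site in each oocyte list, and Pole had 3 sites in the embryo.

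Most member sites lay in coding sequence (CDS). The CDS held 339 of the 410 sites, the 3′ untranslated region (UTR) 43 and the 5′ UTR 28. By stage, the CDS held 81.4%, 80.9% and 84.6% of member sites, against 68.1%, 68.6% and 73.3% of all sites. The 3′ UTR held 10.4%, 10.4% and 10.6%, against 18.7%, 18.1% and 14.6% of all sites. Within the CDS, 115, 107 and 117 of the 339 sites fell in its first, middle and last part of equal length. Of 326 sites with a known reading frame, 124 were at the first, 97 at the second and 105 at the third codon position. The site was followed by G at +2 in 59.3% of the 410 sites and at +3 in 56.1%, close to the 61.3% and 57.5% of all sites. By stage, the mean number of G bases at +1 to +4 was 2.12 ± 0.951 (SD across sites) for GV, 2.05 ± 0.945 for MII and 1.76 ± 0.995 in the 1-cell embryo, and over all sites it was 2.10, 2.10 and 1.91.

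The level of a typical member site was close to 20% in the oocytes and 25% in the embryo. The median level was 22.2% at the GV stage (95% order-statistic interval across sites 20.0 to 25.7), 20.8% at MII (18.3 to 23.1) and 25% in the 1-cell embryo (22.0 to 28.6). The medians of all sites were 19.5%, 19.8% and 23.8%. Levels of at least 50% were found at 31, 36 and 44 member sites, or 16.9%, 15.7% and 19.4%, and at 11%, 11.9% and 16.7% of all sites. A level of exactly 100% was found at 0, 0 and 4 member sites by stage, and at 2, 8 and 551 of all sites. Embryo sites at 100% were thus not particular to these genes. The lists differ in which sites they hold and in depth. With sites under 50 reads left out, the embryo median was 18.2% over 121 sites. Levels between stages were therefore compared at the same sites. A shared site had to pass the limits in both lists, so a site under a limit at either stage is absent from these comparisons. Under 50 reads, which was more common in the embryo, the limit on unconverted reads asks for a level above 10%. The part of these limits in the direction of the differences was not tested.

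At sites listed in both of a pair of stages, the level was mostly higher at the later stage. Each shared site was tested with Fisher's exact test on its unconverted and converted reads, adjusted over all shared sites of the pair, and called at an adjusted p under 0.05. The test compares the reads of 2 libraries, not the stages. The GV and MII oocytes shared 151 member sites, 82.5% of those in the GV list and 65.7% of those in the MII list. Of these, 35 were called higher in the MII oocyte, in 17 genes, where 19.6% of all shared sites were called higher, and 2 were called lower, where the share over all sites was 0.965%. The median difference was 5.79 percentage points (95% interval across sites 3.81 to 7.97), and that of all shared sites 4.87.

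Between the MII oocyte and the 1-cell embryo, 77 member sites were shared, 33.5% and 33.9% of their lists. Of these, 42 were called higher in the embryo, in 26 genes, where the share called higher over all shared sites was 51.3%, and 2 were called lower, where it was 2.45%. The median difference was 13.7 points (10.4 to 20.9), beside 12.7 for all. The embryo and the GV oocyte shared 61 member sites, 26.9% and 33.3% of their lists. Of these, 42 were called higher and 1 lower, with background shares of 66.1% and 1.05%, and the median difference was 23.7 points (18 to 30.7), beside 19.2 for all. The shares called were near the background in all 3 pairs. These pairs share libraries, so they are not independent of each other. With all reads divided by 5, to stand for repeated copies of a molecule, 1, 5 and 13 sites were called higher and none lower in the 3 pairs. The shares called over all shared sites were not counted at that setting.

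**Figure D2:**
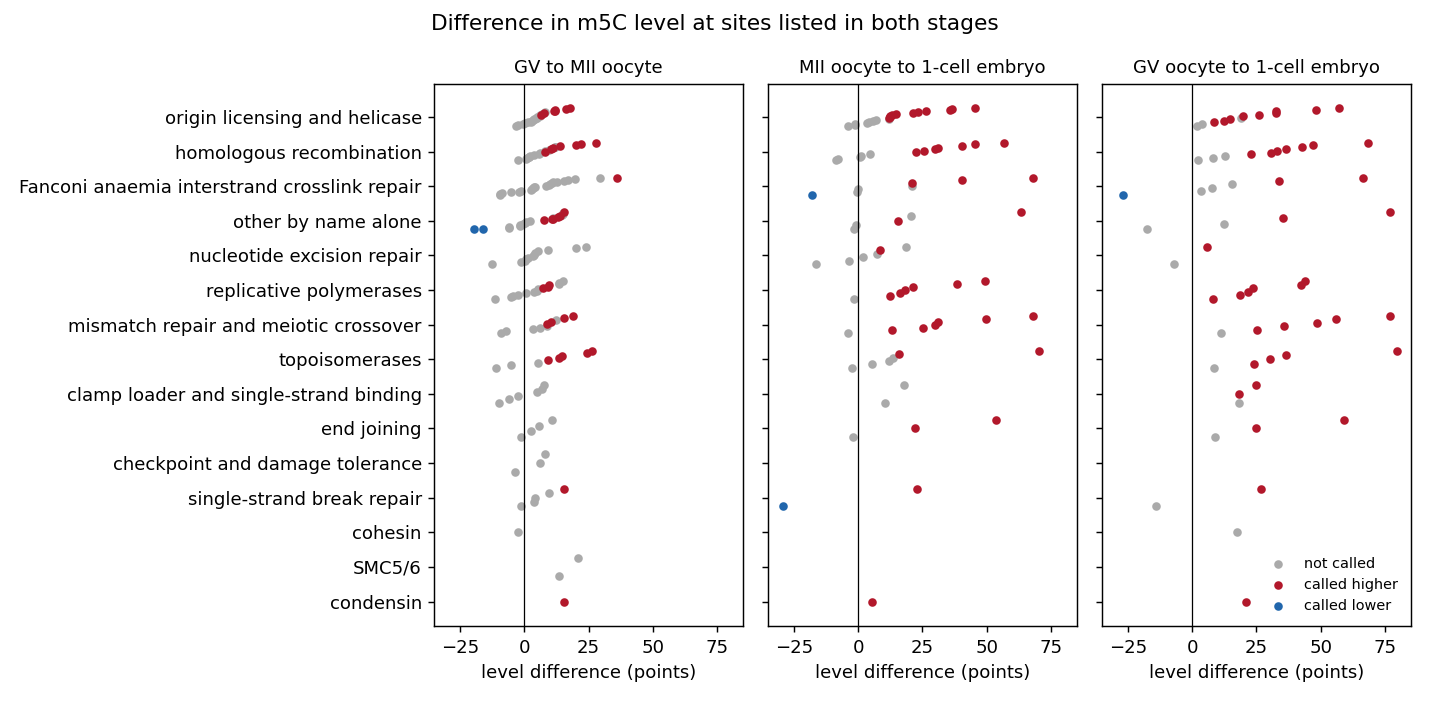
Difference in m5C level, in percentage points (horizontal axes), at each member site listed in both stages of a pair, by role group (vertical axis), in 1 panel per pair. Red and blue points were called higher and lower at the later stage by Fisher's exact test, and grey points were not called. Most called points lie to the right of 0, and the largest difference is that of Top3a, 79.6 points between the GV oocyte and the 1-cell embryo.

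Sites listed at every stage followed the same direction for the most part. There were 59 such sites, and 41 of them (69.5%, 95% exact interval 56.1 to 80.8) were higher at each step, beside 67.4% of all 6145 such sites. Their median level was 22.9% at the GV stage (18.1 to 33.3), 31.9% at MII (28.1 to 36.7) and 52.8% in the 1-cell embryo (42.9 to 68.9). A further 11 sites were higher in the MII oocyte and lower again in the embryo, 5 took the opposite course, and 2 were lower at each step. Their median coverage was 259, 235 and 46 reads. At the 28 of these sites with at least 50 reads in the embryo, the medians were 18.9%, 28.4% and 39.6%, and 20 were higher at each step. At 13 sites of 10 genes both steps were called higher: Brca2, Ercc6l, Mcm10, Mcm2, Mcm3, Mcm5 and Smc4 with 1 each, and Msh6, Pold3 and Top3a with 2 each. The share called higher at both steps over all 6145 such sites was not computed, so this count does not set the members apart.

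**Figure D3:**
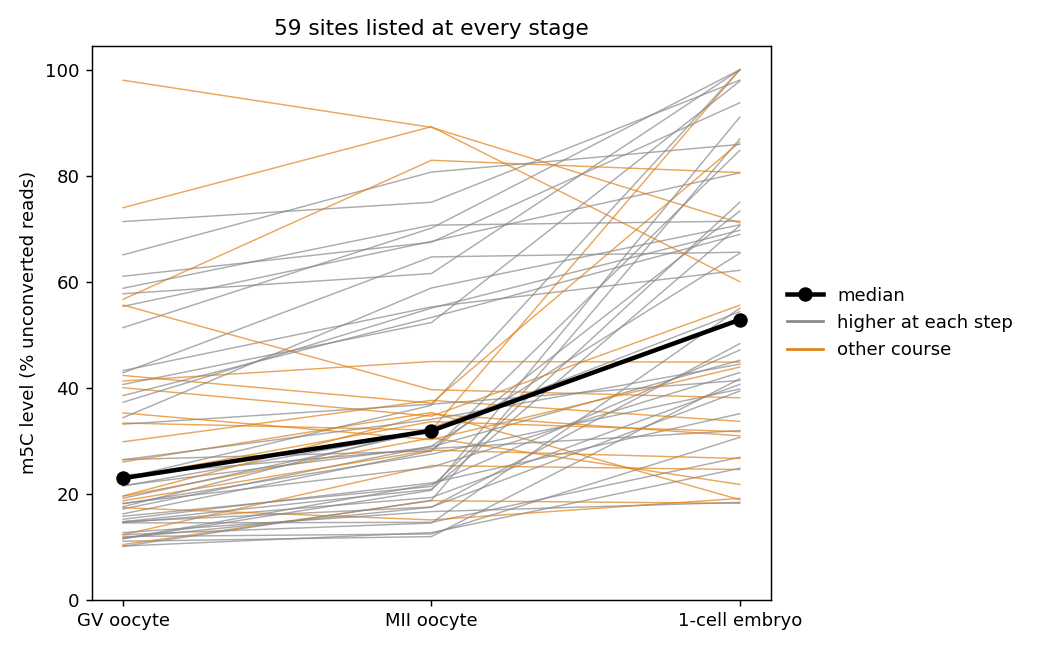
m5C level (vertical axis, percent of reads) of each of the 59 member sites listed at all 3 stages (horizontal axis), as 1 line per site. Grey lines were higher at each step (41 sites), orange lines took another course, and the black line joins the medians of 22.9%, 31.9% and 52.8%.

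Mcm5, a subunit of the helicase, had the most sites among the origin licensing genes and some of the best covered. Its site at chr8:75121215, the first base of a CGG codon in exon 11, was at 61.0% of 816 GV oocyte reads (95% exact binomial interval 57.6 to 64.4), 67.5% of 719 reads at MII (63.9 to 70.9) and 93.8% of 241 reads in the 1-cell embryo (89.9 to 96.5). The intervals of the oocytes overlap, and that of the embryo lies above both. The rise from the MII oocyte to the embryo was 26.3 points (Newcombe 95% interval 21.3 to 30.6, Fisher's exact test, adjusted p = 5.92e-17). In exon 7, the site at chr8:75115882 was at 11.7% of 326 reads in the MII oocyte and 47.4% of 116 reads in the embryo, a rise of 35.8 points (26.1 to 45.3, Fisher's exact test, adjusted p = 5.13e-13). At chr8:75123104 only the difference between the GV oocyte and the embryo was called, with 23.5%, 28.5% and 31.9% of 1086, 933 and 257 reads. Another 7 CDS sites and 1 site in the 3′ UTR of Mcm5 were listed in the embryo alone, at levels from 10.0% to 22.2%.

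The other helicase subunits showed the same mixture of rising and low sites. In Mcm3, the site at chr1:20817367 was at 40.6% of 330 reads, 52.3% of 262 and 97.8% of 46 in the order of stages. Mcm2 had a site at chr6:88891741 that was at 37.2% of 255 reads, 55.0% of 209 and 69.7% of 99, and both steps were called higher. Mcm10, an initiation factor, had a site at chr2:5001001 at 17.1% of 450 reads, 29.0% of 307 and 65.4% of 26. Mcm7 had 1 site at all stages, chr5:138169378, at 17.4%, 15.1% and 19.1%, and none of its differences was called. Its other 7 sites were listed in the embryo alone, at 11.7% to 27.7% of 68 to 119 reads. Over the group, 7 of 23 (GV to MII), 11 of 19 (MII to embryo) and 9 of 12 (GV to embryo) shared sites were called higher. None was called lower. Over all shared sites of these pairs, 19.6%, 51.3% and 66.1% were called higher, and 0.965%, 2.45% and 1.05% lower.

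**Figure D4:**
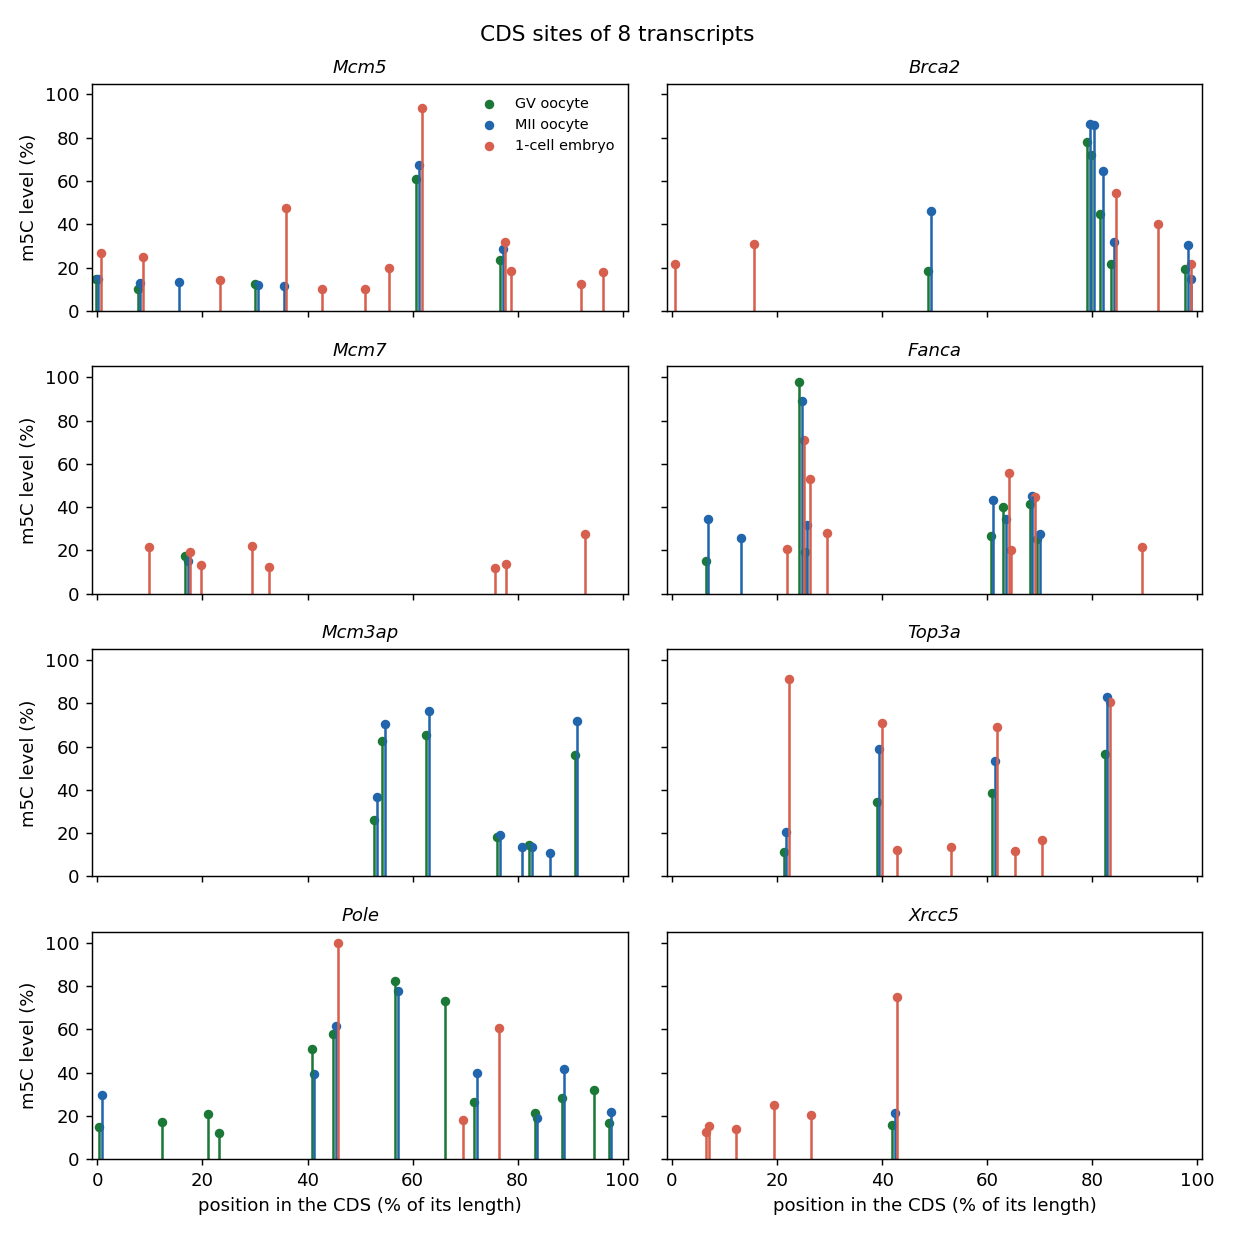
m5C level (vertical axes, percent) against the position of each CDS site as a percentage of CDS length (horizontal axes) in 8 transcripts, coloured by stage. The MII oocyte points stand at their true position and the others are moved by 0.5 to either side for display. Mcm7 and Xrcc5 had most of their sites in the 1-cell embryo, Mcm3ap had CDS sites in the oocytes alone, and Brca2 had its highest sites in the oocytes.

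Among the polymerases, Pold3 carried the best covered sites and Pole the most. Pold3, an accessory subunit of the lagging strand polymerase, had a CDS site at chr7:100093481 at 18.1% of 1343 reads, 27.5% of 1340 and 39.8% of 473, with both steps called higher. Its 3′ UTR site at chr7:100082426 was at 21.5% of 994 reads, 28.8% of 957 and 45.2% of 436. Another site of the same transcript, chr7:100096470, was at 18.7%, 28.2% and 26.6%, and its difference from the MII oocyte to the embryo was -1.59 points (-5.78 to 2.74). Pole had 15 sites spread over its CDS, of which 1 was listed at every stage, the Type II site described below. Its site at chr5:110318352 was at 82.2% of 107 reads in the GV oocyte and 78.0% of 59 in the MII oocyte, and was not in the embryo list. Pold2 had a site at chr11:5874027 at 42.3%, 37.1% and 86.4% of 234, 213 and 44 reads. In this group 3 of 14, 6 of 7 and 6 of 6 shared sites were called higher in the 3 pairs. The shares over all shared sites were 19.6%, 51.3% and 66.1%.

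Clamp loader and single-strand binding genes had few shared sites. Rfc5, a subunit of the clamp loader, had 6 sites in the GV oocyte and 2 listed at every stage, at 26.4%, 34.0% and 44.4% and at 18.2%, 25% and 42.9%, with 27 and 21 reads in the embryo. Rfc2 and Rfc3 had 4 and 1 sites, in the embryo alone. No site of this group was called between the oocytes (6 shared) or from the MII oocyte to the embryo (2 shared). Between the GV oocyte and the embryo, 2 of 3 were called higher. All shared sites were called higher in 19.6%, 51.3% and 66.1% of cases in these pairs.

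Brca2, which acts in homologous recombination, had 12 sites, and in the oocytes several of them were among the highest of all members. The site at chr5:150554362, in exon 18, was at 78.2% of 427 GV oocyte reads (74.0 to 82.0) and 86.2% of 333 in the MII oocyte (82.0 to 89.7). A neighbour in the same exon, chr5:150554438, was at 72.0% of 329 reads and 86.0% of 228. Neither was in the embryo list. The largest rise between the oocytes among sites with at least 50 reads in both was that at chr5:150541692, in exon 11, from 18.4% of 163 reads to 46.2% of 91 (27.7 points, 15.8 to 39.2, Fisher's exact test, adjusted p = 9.79e-05). Of the 7 Brca2 sites shared by the oocytes, 6 were called higher in the MII oocyte, where 19.6% of all shared sites were. In the embryo, the site at chr5:150558399 was at 54.3% of 46 reads, after 21.4% of 564 and 31.8% of 506.

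Rad50, part of the complex that senses broken ends, had its sites near the start of the transcript. Its 5′ UTR site at chr11:53707226 was at 42.8% of 292 reads, 64.7% of 235 and 65.6% of 90. The first step was a rise of 21.9 points (13.4 to 29.9, Fisher's exact test, adjusted p = 1.49e-05), and the second was 0.875 points (-10.9 to 11.9). The site 17 nt downstream in the same 5′ UTR, chr11:53707209, took the other course, with 11.7% of 309 reads, 17.4% of 258 and 48.3% of 89. Its second step was a rise of 30.9 points (19.6 to 41.9, Fisher's exact test, adjusted p = 2.45e-07). Mcm9, whose product acts with that of Mcm8 in recombination, had a site at chr10:53625747 at 16.2%, 28.0% and 84.8% of 105, 82 and 46 reads. Mcm8 had 5 sites, 4 of them in its 5′ UTR, and none in the embryo. Xrcc3, a gene of recombination repair, had 10 sites in the embryo at 13.0% to 71.4%. Of these, 3 were also in the MII oocyte list, and 1 was listed at every stage.

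The Fanconi anaemia genes held the highest level in an oocyte and a called fall. In Fanca, a core complex gene, the site at chr8:123305256 in exon 12 was at 98.0% of 101 GV oocyte reads (93.0 to 99.8), 89.1% of 92 at MII (80.9 to 94.7) and 71.1% of 45 in the 1-cell embryo (55.7 to 83.6). The intervals of the GV oocyte and the embryo do not overlap, and that difference was -26.9 points (-41.5 to -14.7, Fisher's exact test, adjusted p = 1.06e-05). In exon 13 of the same transcript, the site at chr8:123304837 moved the other way, with 19.1%, 31.9% and 52.8% of 115, 91 and 53 reads. Fance had 13 sites, and its site at chr17:28313756 was at 33.3% of 21 reads, 32.0% of 25 and 100% of 34. A second Fance site, chr17:28316062, was at 12.7% of 126 reads in the MII oocyte and 52.9% of 51 in the embryo. Fancm, a DNA translocase of the pathway, had 9 sites, and the highest was at 61.5% and 72.9% in the oocytes. None of the Fancm sites was in the embryo list. Between the oocytes 1 of the 22 shared sites of the group was called higher, a Fance site at 45 and 26 reads. Over all shared sites the share was 19.6%. The median difference of the group was 6.23 points, beside 4.87 for all. Its listed sites had median reads of 68.5 and 55 in the oocytes, beside 121 and 107 for all sites. The part of coverage in this count was not tested. In the pairs of the MII and GV oocytes with the embryo, 3 of 7 and 2 of 6 were called higher, and 1 lower in each. Over all shared sites 51.3% and 66.1% were called higher there, and 2.45% and 1.05% lower.

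Mismatch repair genes held several of the called rises. Msh6, which recognises mismatches, had 3 sites in which the level was higher at each step. The site at chr17:87975358 in exon 1 was at 51.3% of 113 reads, 70.1% of 87 and 100% of 47 (92.5 to 100). The site at chr17:87984716 in exon 4 was at 11.5% of 642 reads, 21.8% of 528 and 47.1% of 259, and its rise from the GV oocyte to the embryo was 35.6 points (29.0 to 42.1, Fisher's exact test, adjusted p = 1.15e-27). Another site listed at every stage, chr17:87986032, was at 19.6%, 35.0% and 30.9%. Msh3 had a 3′ UTR site at chr13:92212282 at 10.1% of 139 reads, 18.8% of 96 and 87% of 23.

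Nucleotide excision repair genes shared 12 sites between the oocytes, and 0 were called in either direction, where 19.6% of all shared sites were called higher. With so few sites this does not set the group apart. In the next step, 1 of 6 was called higher from the MII oocyte to the embryo, where 51.3% of all shared sites were. These 6 sites are also too few to set the group apart. The called site lay in the 5′ UTR of Rad23b, whose product helps to recognise lesions. This site, chr4:55350333, was at 12.8% of 1807 reads in the MII oocyte and 21.4% of 449 in the embryo (8.54 points, 4.65 to 12.8, Fisher's exact test, adjusted p = 4.10e-05). Of the other 3 sites in that UTR, the one at chr4:55350264 was at 12.7% of 798 reads, 16.6% of 758 and 18.4% of 305. Neither step was called. The difference between the GV oocyte and the embryo was called, a rise of 5.70 points (Fisher's exact test, adjusted p = 0.0315). Ercc2, a helicase of the TFIIH complex, had 9 sites in the MII oocyte, and its highest was at chr7:19394084 with 60.7% of 112 reads and 64.4% of 90. Ercc3, the other TFIIH helicase, had a site at 26.0%, 35.3% and 18.9% of 204, 167 and 53 reads. Ercc1 and Ercc4, whose products form a nuclease, had 4 and 1 sites, in the oocytes alone.

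Xrcc1, a scaffold of single-strand break repair, held sites that moved in opposite directions in the embryo. The site at chr7:24559841 was at 71.3% of 363 reads, 75% of 260 and 98.0% of 51 (89.6 to 99.95). The site at chr7:24570285 was at 74.0% of 411 reads, 89.3% of 335 and 60.0% of 30 (40.6 to 77.3). The latter was called higher in the first step by 15.3 points (9.79 to 20.6, Fisher's exact test, adjusted p = 3.89e-06) and lower in the second by a difference of -29.3 points (-47.2 to -13.4, Fisher's exact test, adjusted p = 0.000355). Both lie in the CDS, and the other 5 sites of Xrcc1 were not in the embryo list.

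Among end joining genes, Xrcc5, which encodes a Ku subunit, had 3 sites in the oocytes and 8 in the embryo. Its CDS site at chr1:72326351 was at 15.7%, 21.4% and 75% of 248, 131 and 20 reads. Its 3′ UTR site at chr1:72394773 was at 14.7% of 829 reads, 17.5% of 515 and 39.4% of 127, a rise of 24.7 points between the GV oocyte and the embryo (16.2 to 33.6, Fisher's exact test, adjusted p = 3.18e-09). Xrcc6, the other Ku subunit, had 4 sites and none was listed at every stage.

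The checkpoint kinases carried few sites. Atm had 1 site, chr9:53455886, at 17.9% of 39 reads in the GV oocyte and 26.1% of 23 in the MII oocyte. Atr had 4 sites, and the highest was at chr9:95874795 with 62.2% of 37 reads in the GV oocyte alone. The Atr site shared by the oocytes was at 10.6% of 113 reads and 16.7% of 60, a difference that was not called, and 1 site was listed in the embryo alone at 50% of 24 reads.

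Of the topoisomerases, Top3a, which unlinks recombining DNA molecules, had the largest rise among all members. Its site at chr11:60756436 was at 11.5% of 452 GV oocyte reads (8.71 to 14.8), 20.6% of 281 at MII (16.1 to 25.9) and 91.1% of 56 in the 1-cell embryo (80.4 to 97.0). The rise in the second step was 70.4 points (58.9 to 77.1, Fisher's exact test, adjusted p = 5.38e-22), and it remained called with the reads divided by 5 (adjusted p = 0.00186). Another Top3a site, chr11:60742772, made its rise in the first step, with 56.7% of 307 reads, 82.9% of 240 and 80.6% of 67. The sites at chr11:60747892 and chr11:60750668 were at 38.5%, 53.3% and 68.9% and at 34.3%, 58.8% and 70.7%. All 4 sites shared by the oocytes were called higher in the MII oocyte, where 19.6% of all shared sites were. The remaining 4 Top3a sites were in the embryo alone, at 11.8% to 16.9% of 65 to 156 reads.

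Cohesin transcripts carried 5 sites in 4 genes, all at moderate levels. Smc1a, a core subunit, had a site at chrX:152036443 at 14.6% of 157 GV oocyte reads (9.52 to 21.2) and 12.1% of 140 in the MII oocyte (7.23 to 18.7), and a second at 18.4% of 38 reads in the embryo. Stag3, a subunit of meiotic cohesin, had 1 site, chr5:138308582, at 17.2% of 29 reads in the GV oocyte and 34.6% of 26 in the embryo, and intervals of 5.85 to 35.8 and 17.2 to 55.7 overlap. Stag1 had 1 site at 26.3% of 38 reads and Rad21, the subunit cleaved at anaphase, 1 site in its 3′ UTR at 38.2% of 55 reads, both in the embryo. The oocytes shared 1 cohesin site, the GV oocyte and the embryo shared 1, and the MII oocyte and the embryo shared 0. Neither shared site was called, where 19.6% and 66.1% of all shared sites were called higher in the first 2 of these pairs. With so few sites this does not set cohesin apart. Rec8, Smc1b, Smc3, Stag2 and Rad21l had no site.

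In condensin, which compacts mitotic and meiotic chromosomes, the core subunit Smc4 held the best covered site of all members in the GV oocyte. It lies in the second exon, at chr3:69006193, and was at 65.1% of 1904 GV oocyte reads (62.9 to 67.2), 80.7% of 1621 at MII (78.7 to 82.6) and 85.9% of 490 in the 1-cell embryo (82.5 to 88.9). The first step was 15.6 points (12.7 to 18.5, Fisher's exact test, adjusted p = 1.10e-22) and the second 5.23 points (1.39 to 8.66, Fisher's exact test, adjusted p = 0.0190). Smc5 and Smc6, whose products form a related complex, had 3 and 2 sites, those of Smc5 in the oocytes and those of Smc6 in the embryo.

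Some genes were taken by their name alone, with roles outside the groups above. Mcm3ap, which takes part in mRNA export, had 8 CDS sites in the MII oocyte, of which 6 were also in the GV oocyte, with the highest at chr10:76499478, at 65.4% of 728 reads and 76.5% of 469. The embryo list held none of them, although 7 of the 8 had over 200 reads in the MII oocyte, and held 1 other site in its 5′ UTR. Poldip3, an RNA-binding protein, held the only falls called between the oocytes. Its 3′ UTR site at chr15:83126926 was at 79.5% of 234 GV oocyte reads (73.7 to 84.5) and 60.0% of 215 in the MII oocyte (53.1 to 66.6), a difference of -19.5 points (-27.6 to -11.0, Fisher's exact test, adjusted p = 0.000149). The site 84 nt downstream, chr15:83126842, was at 55.6% of 259 reads and 39.6% of 260. Ercc6l, a translocase of anaphase DNA bridges, had a site on the X chromosome at chrX:102143504 at 22.9% of 205 reads, 36.7% of 199 and 100% of 35 (90 to 100).

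Type II sites were 21 of the 410, and 10, 10 and 13 by stage. Their share was 5.46% at the GV stage (2.65 to 9.82), 4.35% at MII (2.10 to 7.85) and 5.73% in the 1-cell embryo (3.08 to 9.59), beside 5.91%, 5.03% and 3.44% of all sites. The interval of each stage holds the share of all sites at that stage. In Pole, the CUCCA site at chr5:110308986 was at 57.7% of 97 reads, 61.5% of 52 and 100% of 26 (86.8 to 100). In Msh4, a gene of meiotic crossover formation, the site at chr3:153896923 was at 14.7% of 68 reads, 20.8% of 48 and 70.6% of 34, a rise of 49.8 points in the second step (28.3 to 65.3, Fisher's exact test, adjusted p = 4.41e-05). The Mcm6 site at chr1:128344390 had more reads and was called higher in the first step alone, with 29.8% of 584, 37.6% of 585 and 33.6% of 110. The Rpa2 site in the 3′ UTR, chr4:132778215, was at 11.4% of 493 reads in the GV oocyte and 29.7% of 128 in the embryo, and was not in the MII oocyte list. The Xrcc5 site at chr1:72394860, which reads CUCUA, was at 22.9%, 33.6% and 31.7% of 183, 128 and 41 reads.

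Coverage at shared sites was mostly lower at the later stage. At the 151 sites shared by the oocytes the median ratio of reads in the MII oocyte to those in the GV oocyte was 0.805, and 127 sites had fewer reads in the MII oocyte. At the 77 sites shared by the MII oocyte and the embryo it was 0.302, beside 0.318 for all shared sites, and 76 had fewer reads in the embryo. Among genes with at least 3 shared sites, the median ratio ran from 0.0909 in Brca2 and 0.119 in Mcm10 to 0.515 in Msh6 and 0.533 in Fanca. The spread within a gene could be as wide, with 0.0605 to 0.526 in Brca2, 0.199 to 0.614 in Msh6 and 0.266 to 0.582 in Fanca. In Mcm10 it was 0.0847 to 0.129. The lists do not give the depth of the libraries, so fewer reads of a transcript and a smaller library cannot be told apart. The part of coverage in the level differences was not tested. With at least 100 reads in both stages, 15 of 22 member sites were called higher from the MII oocyte to the embryo. Their median difference was 12.4 points. The share called over all shared sites under that limit was not counted.

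Many oocyte sites did not come back in the embryo list. Of the 230 MII oocyte sites, 77 (33.5%) were also in the embryo list, beside 38.7% of all MII oocyte sites. The 153 that were not in it had a median of 77 reads in the MII oocyte, where the 77 listed in both had 244, and over all sites the medians were 68 and 240. Their median levels in the MII oocyte were 18.9% and 28.0%. Of the 153, 20 (13.1%) were at 50% or above in the MII oocyte, such as the Brca2 and Mcm3ap sites. Over all MII oocyte sites not in the embryo list, the share was 9.37%. In the other direction, 148 sites (36.1%) were in the embryo list alone, beside 41.3% of all sites. Of these 125 (84.5%) were in genes that had a site in an oocyte, beside 88.4% over all sites. The sites of the embryo alone had a median level of 19.9% and 53 reads, and 12 of them (8.11%) were at 50% or above, beside 6.66% over all sites.

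**Figure D5:**
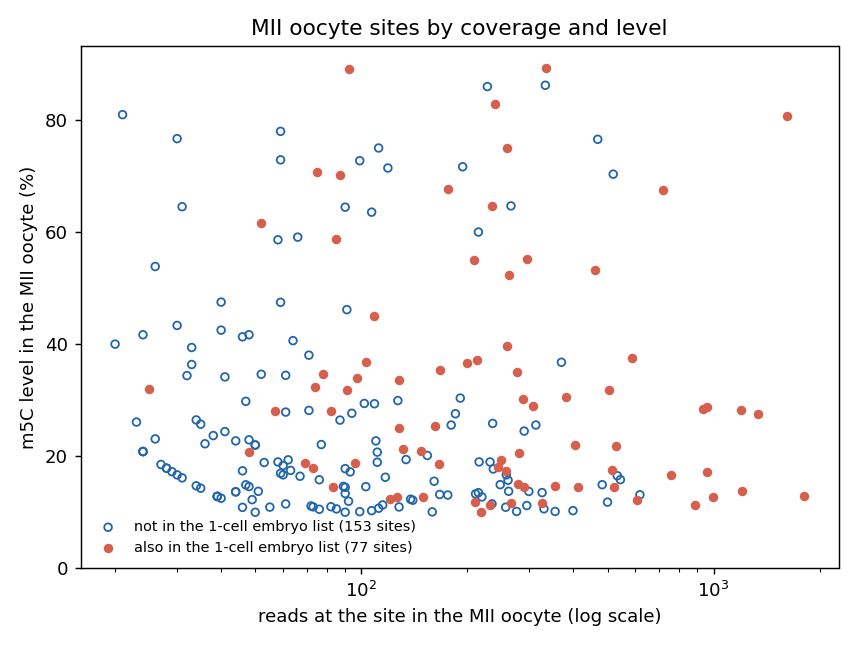
m5C level in the MII oocyte (vertical axis, percent) against reads in the MII oocyte (horizontal axis, log scale) for its 230 member sites. Filled red points are the 77 sites also listed in the 1-cell embryo, with a median of 244 reads, and open blue points the 153 sites that are not, with a median of 77.

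Adjacent C bases in the same transcript could differ widely in level. Pairs of adjacent listed sites numbered 3 in the GV oocyte, 7 at MII and 2 in the 1-cell embryo. In Ercc2, the upstream C of a pair in exon 22 was at 13.3% of 90 reads in the MII oocyte and the downstream C, chr7:19394084, at 64.4% of 90. In Xrcc1, a pair in exon 9 was at 18.9% of 111 reads and 75% of 112. In Mcm2 the order was the other one, with 55.3% of 295 reads at the upstream C, chr6:88897441, and 14.5% of 289 at the downstream C. The embryo kept that order in Mcm2, with 62.2% of 37 and 13.2% of 38 reads. Other pairs were closer in level, such as 14.6% and 10.3% in Rad54l and 12.0% and 17.2% in Fance, both at MII. An Ercc1 pair was at 39.0% and 37.5% of 41 and 40 GV oocyte reads. At MII its order was the other one, with 26.5% and 36.4% of 34 and 33 reads.
The upstream C of the Ercc2 pair stands first in the capitals of this window, which is shown for its 2 adjacent sites.
Ercc2, chr7:19394083: cucgcuggauCCAGGagcaccugac

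Other genes of these pathways, which the name rule does not take, were read from a list of 126 symbols. Of them 106 had a site, with 205, 268 and 354 sites in the order of stages and medians of 18.6%, 20.0% and 23.0%. Espl1, the protease that cleaves cohesin, had the most, with 9, 14 and 25 sites. Of 171 sites shared by the oocytes 34 were called higher, of 108 shared by the MII oocyte and the embryo 65, and of 84 shared by the GV oocyte and the embryo 63, with 0, 2 and 0 called lower. The shares of all shared sites called higher, 19.6%, 51.3% and 66.1%, apply here too. Lig3, a DNA ligase, had 8, 10 and 15 sites and Ticrr, which acts in origin firing, 6, 8 and 19, while Slx4, a scaffold of nucleases, had 9, 9 and 3.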

How the data were processed

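RNA bisulfite sequencing of GV oocytes, MII oocytes and 1-cell embryos was analysed, with 1 library per stage. Per the labels, the authors trimmed reads with cutadapt 1.13 and Trimmomatic 0.36 and aligned them with HISAT2 2.10 and Bowtie2 2.2.9 on GRCm38; the reporting summary of the study gives other versions of cutadapt and HISAT2. The coverage deposited by the authors is a count of C and T reads per site, not normalized. Levels, the fraction of unconverted reads in the deposited lists, are given in percent. A deposited p-value, which compares each site with the unconverted rate of its gene by a binomial test, supports no result here.

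Unconverted reads are the level times coverage, which was whole to within 2.90e-05. Sites were placed in GENCODE M21 transcripts of their own gene (CDS, then 5′ UTR, then 3′ UTR), and bases were read from GRCm38; all 40279 sites on chromosomes were C. Fisher's exact test (two-sided, scipy 1.17.1, Python 3.11.15) was adjusted by Benjamini-Hochberg over all 12954, 8015 and 6478 shared sites of the pairs, and was tested on simulated data. Level intervals are exact binomial and difference intervals Newcombe; both cover counting error alone, and reads are not independent molecules. Reads at member sites summed to 39730, 47550 and 19134. The members, role groups and gene lists were chosen with earlier results of these data known. Sites were named by rule (largest called changes, highest levels, most reads, Type II sites, genes with most sites), with others added after their values were seen. The values of some member genes are not reported here, although the counts include them.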

Additional observations from a re-analysis of the deposited data

How the results depend on the processing

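The lists hold called sites alone, the depth of the libraries is not in them, and no stage had a second library. No paired analysis was possible because each stage has 1 library. Median level differences kept their sign and stayed within their intervals under every limit on coverage and level, and taking CUCCA alone as Type II or symbols by identifier moved no count past 1.5 times. Dividing reads by 5 left 1, 5 and 13 sites called higher and 0, 0 and 0 lower (GV to MII, MII to embryo, GV to embryo), since fewer reads enter the test; of 74 named site differences called, 58 were then not called. With at least 50 reads, median coverage was 163, 162 and 90 by stage, the embryo held 121 sites in 42 genes at a median of 18.2%, and the embryo shared 40 sites with the MII oocyte (24 higher, 1 lower) and 29 with the GV oocyte (24 higher, 0 lower). With at least 100 reads, there were 107, 121 and 54 sites, 43 MII oocyte and 21 embryo genes, median coverage of 234, 249 and 150, an embryo median of 17.2%, 86.8% of MII oocyte sites in the CDS, 4.96% of MII oocyte and 9.26% of embryo sites in the 5′ UTR, and 78, 22 and 16 shared sites, of which 15 and 15 were higher and 0 and 0 lower in the pairs with the embryo. With levels of at least 20%, there were 106, 118 and 144 sites with medians of 33.8%, 34.6% and 37.5%, a median embryo coverage of 42.5, and 82, 46 and 31 shared sites, of which 24 and 19 were higher in the pairs with the embryo. The shares called over all shared sites were not counted under any of these settings. The cause of the other shifts was not tested.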
